A study of Homo sapiens with 2 samples.

Results

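The pore subunits of the voltage-gated calcium channels are encoded by 10 genes, CACNA1A to CACNA1I and CACNA1S, and their transcripts were examined in sorted human serotonin neurons. The members were chosen by symbol, and all 10 were found among the 61487 genes listed for both libraries. Both libraries were made from the human embryonic stem cell line WA09 (H9) with a TPH2-EGFP knock-in, in which EGFP marks cells that express TPH2, the serotonin-synthesising enzyme of neurons. Cells were differentiated for 42 days towards serotonin neurons, sorted for EGFP and captured with 10x 3' chemistry. The library labelled WT carried the reporter alone, and the library labelled FKO carried the reporter and a FOXA2 knockout. Per the methods, the knockout line was built on an indel line of FOXA2, and each genotype was represented by 1 library. The dose of purmorphamine, the hedgehog agonist used in the protocol, is not given for these libraries in the sources used here.

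Voltage-gated calcium channels open when the membrane is depolarised and let calcium into the cell. The pore subunit sets the voltage range and the kinetics of the current, and beta and alpha2delta subunits govern how much of it reaches the membrane. In serotonin neurons, calcium entry shapes the slow rhythmic firing and the long afterhyperpolarisation of these cells and triggers transmitter release at their terminals.

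After filtering, 5723 cells of the WT-labelled library and 6978 of the FKO-labelled library were kept. Of these, 5605 (97.9%, 95% exact interval 97.5 to 98.3) and 6348 (91.0%, 90.3 to 91.6) held at least 1 UMI of FEV, the transcription factor that defines serotonin neurons, and are called FEV-positive. The median depth of FEV-positive cells was 12502 UMIs in the WT-labelled library and 7003 in the FKO-labelled library, and the median mitochondrial share was 7.86% and 5.25%. The libraries shared 21 barcodes. With 1 library per label no test between genotypes was possible, and every interval given here covers counting error only.

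The 8 serotonergic markers summed to 2773 and 2476 CPM (UMIs of a gene scaled to the library's summed UMIs). FEV, on which the cells were chosen, stood at 1604 CPM in the WT-labelled library and 978 in the FKO-labelled library, and is no check of the label. GATA3, a transcription factor of these neurons, had a UMI in 96.0% and 95.8% of FEV-positive cells, DDC, the second enzyme of serotonin synthesis, in 88.5% and 75.7%, and TPH2, whose reporter was sorted on, in 72.5% and 56.8%, without thinning to a common depth. The markers did not share a direction: TPH2 (199 and 172 CPM) and DDC (272 and 239 CPM) were lower in the FKO-labelled library, as was FEV. For TPH2 the sign turned under some processing alternatives, given in the section on processing. GATA3 (600 and 867 CPM), GATA2 (24.0 and 43.6 CPM), LMX1B (33.0 and 74.6 CPM), the serotonin transporter SLC6A4 (21.7 and 47.3 CPM) and the vesicular transporter SLC18A2 (19.5 and 54.1 CPM) were higher. The 5 neuronal markers summed to 6516 and 9787 CPM, led by STMN2. FOXA2 went against the label: it had 300 UMIs (4.01 CPM) in the WT-labelled library and 840 UMIs (15.7 CPM) in the FKO-labelled library, a log2 ratio of 1.96 (1.77 to 2.16). The other floor plate markers, SHH (417 and 101 UMIs) and CORIN (226 and 30 UMIs), were lower in the FKO-labelled library and so went with the label. A 3' count does not show a small indel, so FOXA2 does not check the genotype, and whether the labels are the right way round was not tested. Each direction below is one between libraries as labelled.

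Markers of other cells also differed between the libraries. The 5 mesenchymal markers, all detected in both, summed to 33.7 CPM (COL3A1 highest) and 133 CPM (COL1A2 highest). COL1A1 (1.95 and 46.6 CPM), COL1A2 (2.57 and 47.4 CPM) and COL3A1 (11.4 and 25.3 CPM) were higher in the FKO-labelled library, whereas DCN (7.08 and 5.63 CPM) and LUM (10.7 and 7.60 CPM) were lower. SOX10, a marker of the oligodendrocyte lineage, was at 0 in the WT-labelled library and had 177 UMIs (3.30 CPM) in the FKO-labelled library. The cycling markers MKI67 and TOP2A summed to 15.8 and 21.2 CPM, and the progenitor markers SOX2 and NES to 174 and 120 CPM. The 3 floor plate markers summed to 12.6 CPM (SHH highest) and 18.1 CPM (FOXA2 highest). Skeletal muscle markers were near 0, with 2 UMIs over 3 genes in each library, MYOG at 0 in the first and MYOD1 at 0 in the second.

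Summed over the 10 members, the family reached 78.1 CPM (76.2 to 80.2) in FEV-positive cells of the WT-labelled library and 342 CPM (337 to 347) in those of the FKO-labelled library. The log2 ratio of these sums, FKO over WT, was 2.13 (2.09 to 2.17). In all, 9 members had more than 3 UMIs in a library, and their median log2 ratio was 1.76, against 0.52 for the 15251 genes with a mean CPM of at least 1. CACNA1F was the member without a ratio.

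**Figure D1:**
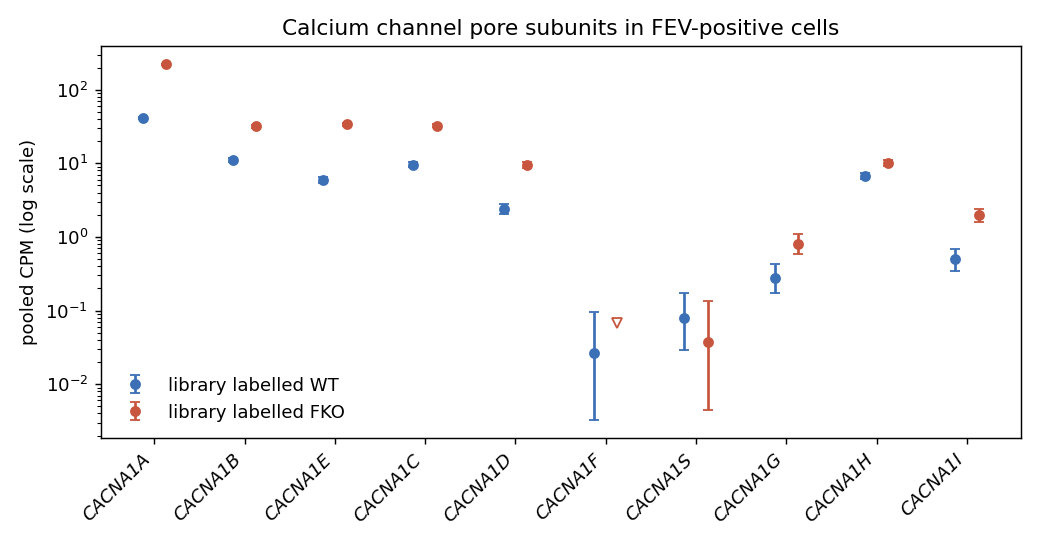
Pooled CPM of each member (log axis) in FEV-positive cells of the WT-labelled library (blue) and FKO (red), with 95% Poisson intervals for counting error; the open triangle is the upper limit of a count of 0. With no scaling to gene length, CACNA1A has the most UMIs in both libraries, at 41.6 and 221 CPM, and CACNA1F and CACNA1S lie near the floor.

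The Cav2 genes encode the channels that drive transmitter release. CACNA1A (ENSG00000141837, GRCh38 chr19:13206442-13633025), the P/Q-type subunit, had 3110 UMIs in the WT-labelled library and 11869 in the FKO-labelled library. These counts gave 41.6 CPM (40.1 to 43.1) and 221 CPM (217 to 225), a 5.32-fold difference and a log2 ratio of 2.41 (2.35 to 2.47). CACNA1E (ENSG00000198216, chr1:181317690-181808084), the R-type subunit, stood at 5.95 CPM (5.41 to 6.53) and 33.7 CPM (32.2 to 35.3), a log2 ratio of 2.5 (2.35 to 2.65). These 2 members had the highest ratios of the family. Their intervals overlapped each other and that of the sparse CACNA1I (1.45 to 2.58). CACNA1B (ENSG00000148408, chromosome 9), the N-type subunit, stood at 11.1 CPM (10.3 to 11.8) and 32.1 CPM (30.6 to 33.6), a log2 ratio of 1.54 (1.42 to 1.66), below both.

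The 250 bases before the RefSeq start (GRCh38.p14) of the 2 members with the highest ratios are printed as a description of these windows. Entries were found for 8 of the 10 members, and CACNA1G and CACNA1H had none. Capitals mark matches, on either strand, to the GC box GGGCGG, the CCAAT box, the TATA box TATAAA, the core CCGGAA bound by ETS factors (the class of FEV) or the motif AGATAA bound by GATA factors. The first lies on the minus strand at chr19:13506480-13506729, and the second on the plus strand at chr1:181483267-181483516, both inside the GENCODE span of their gene. Each span begins upstream of its window, at chr19:13633025 and chr1:181317690. Which start the cells used was not tested.
CACNA1A: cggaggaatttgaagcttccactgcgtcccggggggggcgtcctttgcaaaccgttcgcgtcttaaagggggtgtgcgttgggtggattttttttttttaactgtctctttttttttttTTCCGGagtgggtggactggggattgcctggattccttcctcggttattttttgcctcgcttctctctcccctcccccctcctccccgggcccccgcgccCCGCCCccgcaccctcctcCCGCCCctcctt
CACNA1E: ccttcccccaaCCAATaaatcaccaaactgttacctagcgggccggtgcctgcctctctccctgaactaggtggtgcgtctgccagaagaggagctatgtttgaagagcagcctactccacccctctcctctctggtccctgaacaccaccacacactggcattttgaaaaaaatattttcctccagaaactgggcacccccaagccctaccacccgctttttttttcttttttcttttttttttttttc
The CACNA1A window held 17 CpG and 58.8% G and C, with 2 matches to GGGCGG and 1 to CCGGAA. The CACNA1E window held 4 CpG and 48.8% G and C, with 1 match to CCAAT. Among 35116 windows of the same length, GGGCGG was found in 42.6%, CCAAT in 32.0%, TATAAA in 10.7%, CCGGAA in 14.5% and AGATAA in 9.17%, and the median window held 11 CpG. CpG counts of the other members with an entry ran from 3 in CACNA1I to 51 in CACNA1C. A match is a run of letters and was not tested as a site.

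The Cav1 genes encode the L-type channels, which couple depolarisation to slow firing and to transcription. CACNA1C (ENSG00000151067, chromosome 12), the most widely expressed of them in brain and heart, stood at 9.60 CPM (8.91 to 10.3) in the WT-labelled library and 32.6 CPM (31.1 to 34.2) in the FKO-labelled library, a log2 ratio of 1.76 (1.64 to 1.89). CACNA1D (ENSG00000157388, chromosome 3), whose channel opens at more negative voltages and takes part in pacemaking, stood at 2.41 CPM (2.07 to 2.78) and 9.56 CPM (8.75 to 10.4), a log2 ratio of 1.99 (1.74 to 2.24). Both were higher in the FKO-labelled library. CACNA1F (ENSG00000102001, chromosome X), the subunit of retinal photoreceptors, had 2 UMIs and 0 UMIs, at or under the floor of 3 counts in both libraries. CACNA1S (ENSG00000081248, chromosome 1), the subunit of skeletal muscle, had 6 and 2 UMIs, and its log2 ratio of -1.11 had an interval from -4.45 to 1.38. These few UMIs gave no direction for the L-type channels of retina and muscle. Overlapping genes on the same strand as CACNA1C had at most 40 UMIs in a library. On the opposite strand, DCP1B (860 and 654 UMIs) overlaps CACNA1C and DCP1A (2410 and 2976 UMIs) overlaps CACNA1D, and whether counting used the strand is not given in the sources used here.

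The Cav3 genes encode the T-type channels, which open near the resting potential and support rebound and rhythmic firing. CACNA1H (ENSG00000196557, chr16:1153121-1221772) stood at 6.67 CPM (6.10 to 7.28) in the WT-labelled library and 10.1 CPM (9.30 to 11) in the FKO-labelled library, a log2 ratio of 0.60 (0.43 to 0.78). Its interval held the median of all genes, and it lay below those of the Cav2 members and of CACNA1C and CACNA1D. CACNA1I (ENSG00000100346, chromosome 22) had 37 and 106 UMIs, or 0.495 and 1.98 CPM, a log2 ratio of 2.0 (1.45 to 2.58). CACNA1G (ENSG00000006283, chromosome 17) had 21 and 43 UMIs, or 0.281 and 0.801 CPM, a log2 ratio of 1.51 (0.73 to 2.34). Both were sparse, and their intervals were wide. Collagen-rich cells of the FKO-labelled library, described below, held CACNA1G at a higher CPM than FEV-positive cells.

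The ratio between these libraries differed with gene span, which counts introns. Its median was 0.17 over 3781 genes under 10 kb, 0.68 over 2376 genes of 50 to 100 kb and 1.01 over 438 genes above 400 kb. The members are long: CACNA1C spans 727 kb, CACNA1E 490 kb, CACNA1D 485 kb, CACNA1A 427 kb and CACNA1B 247 kb, whereas CACNA1H spans 68.7 kb. Each member was therefore set beside the 200 genes nearest to it in span.

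CACNA1A lay 1.5 above the median of genes of like length (0.92) on the log2 scale, and CACNA1E lay 1.47 above its own (1.03). CACNA1I lay 1.19, CACNA1D 0.97, CACNA1B 0.81, CACNA1G 0.77 and CACNA1C 0.75 above. CACNA1H lay -0.050 from its reference of 0.65, and CACNA1S, with 6 and 2 UMIs, was also below its own. Over the 9 members with a ratio the median difference was 0.81, and 7 were above genes of like length. Among these 7, the interval of the sparse CACNA1G (0.729 to 2.34) held its reference of 0.745. The intervals of CACNA1H and CACNA1S held their references too.

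Of the 7 members with a mean CPM of at least 1, 6 lay at least 1 above the median of all genes, where 9.51% of all genes did so, and 0 lay at least 1 below it, where 10.7% did. Against genes of like length the count was 3 of 7 (CACNA1A, CACNA1E and CACNA1I), beside 9.69% of genes, and 0 of 7 at least 1 below, beside 7.86%. The first count rests in part on CACNA1B, at 1.01 above the median of all genes, and CACNA1D, at 0.97, lay just short of the second. CACNA1I, at 0.495 and 1.98 CPM, reached the minimum only through the library in which it was high, so these counts are descriptions. Against genes of like length and level, CACNA1I lay 0.89 above and CACNA1D 1.02 above, so CACNA1I was then under 1 and CACNA1D past it, beside CACNA1A (1.51) and CACNA1E (1.60).

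The make-up of the family differed as well, a comparison that needs no scaling to library totals. It is not free of the trend with gene span: the median of genes of like length was 0.65 for CACNA1H and 0.92 for CACNA1A. How much of the difference in shares goes with span was not tested. CACNA1A took 53.2% (51.9 to 54.5) of the family's UMIs in the WT-labelled library and 64.7% (64.0 to 65.4) in the FKO-labelled library. CACNA1H took 8.54% (7.83 to 9.28) and 2.96% (2.72 to 3.22), and CACNA1B 14.2% (13.3 to 15.1) and 9.38% (8.96 to 9.81). By class, the Cav2 genes took 75% and 83.9%, the Cav1 genes 15.5% and 12.3%, and the Cav3 genes 9.53% (8.79 to 10.3) and 3.78% (3.50 to 4.06). A lower share is not a lower level: the Cav3 genes stood at 7.45 CPM (6.84 to 8.09) and 12.9 CPM (12 to 13.9), a log2 ratio of 0.79 (0.63 to 0.96), below the 2.29 of the Cav2 genes. CACNA1H held 499 of the 557 Cav3 UMIs of the WT-labelled library, and the shares of CACNA1I (0.633% and 0.577%) and CACNA1G (0.359% and 0.234%) had overlapping intervals.

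**Figure D2:**
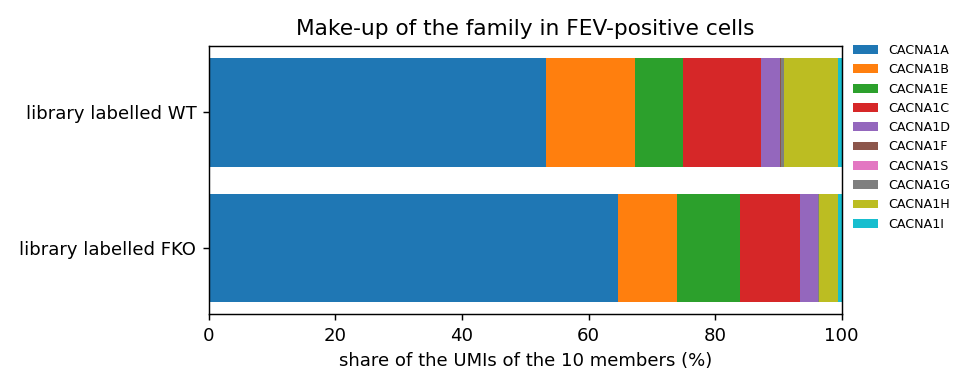
Share of the UMIs of the 10 members taken by each, in FEV-positive cells of each library. CACNA1A takes 53.2% in the WT-labelled library and 64.7% in the FKO-labelled library, and CACNA1H 8.54% and 2.96%.

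Levels of members were set side by side per gene span, a scale that fits only if UMIs from introns were counted, which is not given in the sources used here. Per 100 kb of gene span, CACNA1A (9.74 CPM) and CACNA1H (9.72 CPM) were nearly level in the WT-labelled library, followed by CACNA1B at 4.48 CPM. In the FKO-labelled library, the same scale gave 51.8 CPM for CACNA1A, 14.8 for CACNA1H and 13.0 for CACNA1B. CACNA1C and CACNA1E were at 1.32 and 1.21 CPM per 100 kb in the first library, close to each other, and at 4.48 and 6.87 in the second.

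Detection was compared after thinning each cell to 2000 UMIs, which left out 24 FEV-positive cells of the WT-labelled library and 51 of the FKO-labelled library. CACNA1A was then found in 7.79% of cells (7.1 to 8.53) and 32.2% (31.1 to 33.4), and unthinned in 37.1% and 70.1%. In cells with no FEV UMI, with median depths of 8301 and 6200 UMIs, the thinned share was 6.06% (2.26 to 12.7) of 99 cells and 13.1% (10.4 to 16.2) of 565 cells. In collagen cells, defined by at least 10 UMIs of COL1A1, COL1A2 and COL3A1 together and with median depths of 26486 and 10326 UMIs, it was 1 of 20 cells and 11.9% (6.51 to 19.5) of 109 cells. The gates overlap: all 20 collagen cells of the WT-labelled library and 53 of the 109 of the FKO-labelled library held a FEV UMI, and so count as FEV-positive too. Their pooled levels were below those of FEV-positive cells, with FEV at 184 and 392 CPM, TPH2 at 23.0 and 56.2 CPM and STMN2 at 468 CPM (against 4415) and 1916 CPM (against 5841). Whether these UMIs came from the cells themselves or from free RNA was not tested. In the FKO-labelled library, the thinned share of CACNA1A in FEV-positive cells was above that in cells with no FEV UMI. In the WT-labelled library it was within the interval of those cells, whereas the pooled level of CACNA1A was higher in FEV-positive cells, at 41.6 CPM (40.1 to 43.1) against 20.9 CPM (12.8 to 32.3, from 20 UMIs). Unthinned, at median depths of 12502 and 7314 UMIs, its share there was 37.1% against 16.9% (10.7 to 25).

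For the other members, the thinned share in FEV-positive cells of the FKO-labelled library was 6.18% for CACNA1B, 6.15% for CACNA1C and 5.76% for CACNA1E. In cells with no FEV UMI it was 3.01% (1.76 to 4.77), 4.25% (2.74 to 6.25) and 4.25% (2.74 to 6.25), so CACNA1B was above that interval while CACNA1C and CACNA1E were within it. Thinned to 4000 UMIs, CACNA1E was above the interval, in 11.4% of FEV-positive cells against 6.44% (4.29 to 9.24), and CACNA1C was again within it, in 11.4% against 8.83% (6.29 to 12). The pooled level of each was higher in FEV-positive cells, at 33.7 CPM against 20.1 CPM (15.9 to 25.1) for CACNA1E and 32.6 CPM against 22.7 CPM (18.2 to 27.9) for CACNA1C. In the thinned collagen cells CACNA1B and CACNA1D were each found in 2 of 109 cells, CACNA1H in 3, CACNA1C in 4 and CACNA1E in 0. That 0 allows a thinned share of up to 2.75% by a floor of 3 counts, or 3.33% by the exact interval. Without thinning, CACNA1E was in 9 of these cells (8.26%, 3.85 to 15.1). CACNA1G was higher in collagen cells than in FEV-positive cells, at 6.17 CPM (2.82 to 11.7, from 9 UMIs) against 0.801 CPM (0.580 to 1.08). For CACNA1D (1.64%) and CACNA1H (2.10%) the thinned share was no higher than in cells with no FEV UMI (2.83% and 2.48%), so neither was detected more often in FEV-positive cells at this depth. For CACNA1D, FEV-positive cells were lower by some other measures, at 3.58% against 5.97% (3.90 to 8.68) when thinned to 4000 UMIs and at 9.56 CPM against 13.8 CPM (10.3 to 18.0). Without thinning, the CACNA1D share was within the interval, at 7.34% against 7.94% (5.95 to 10.3). The pooled level of CACNA1H, at 10.1 CPM, was within the interval of cells with no FEV UMI, at 8.66 CPM (6 to 12.1). Without thinning, CACNA1H was in 8.03% of FEV-positive cells against 5.08% (3.50 to 7.1) of all 630 cells with no FEV UMI, at median depths of 7003 and 5686.5 UMIs. The cells with no FEV UMI held STMN2 at 2414 and 3347 CPM, so they are not a population that lacks neuronal RNA. In the WT-labelled library, these 5 members were each found in at most 2.02% of thinned FEV-positive cells, within the intervals of the 99 cells with no FEV UMI.

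The number of members per cell differed as well. This count includes CACNA1A, found in 7.79% and 32.2% of thinned FEV-positive cells, and was not taken without it. After thinning, 86.1% (85.2 to 87.0) of FEV-positive cells of the WT-labelled library had no UMI of any member, against 54.4% (53.2 to 55.6) for the FKO-labelled library, while 0.735% and 7.38% had UMIs of 2 members, and 0.0358% and 0.731% of at least 3. Without thinning, the shares with none were 42.6% and 17%, those with 2 were 14.7% and 28.1%, and those with at least 3 were 4.48% and 18.4%.

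Depth and mitochondrial share differed between the libraries, so ratios were also taken within bins. Among cells with 5% to 7.5% mitochondrial UMIs (1989 and 2973 cells), CACNA1A stood at 40.7 and 215 CPM, a log2 ratio of 2.40 (2.31 to 2.49), and CACNA1H had a ratio of 0.62 (0.35 to 0.89). Among cells of 10000 to 20000 UMIs (3722 and 1201 cells), CACNA1A had a ratio of 2.40 (2.32 to 2.48), CACNA1E 2.51 (2.30 to 2.71) and CACNA1H 0.50 (0.20 to 0.78). Over the 8 bins, the CACNA1A ratio ran from 2.0 (1.44 to 2.62), in cells under 5000 UMIs with 26 UMIs of the gene in the WT-labelled library, to 2.82 (2.55 to 3.11), in cells of at most 5% mitochondrial UMIs. CACNA1H was less even: its ratio was 0.10 (-0.49 to 0.64) among cells with 7.5% to 10% mitochondrial UMIs and -0.18 (-1.51 to 1.52) among cells under 5000 UMIs, where it had 5 UMIs in the WT-labelled library, and 0.50 to 0.68 in the other bins. In FEV-positive cells without any UMI of SOX10, COL1A1, COL1A2, COL3A1, MKI67 or TOP2A, a set chosen after seeing the data, 5200 and 5730 cells were left. The ratio there was 2.40 for CACNA1A, 2.49 for CACNA1E and 0.61 for CACNA1H. The part of the floor plate and progenitor markers was not tested.

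Within each library some members differed across subgroups of FEV-positive cells. For a gate of at least 1 TPH2 UMI, only CACNA1A had an interval clear of 0 in the WT-labelled library. In the FKO-labelled library CACNA1A, CACNA1B and CACNA1E did. In cells with a TPH2 UMI, CACNA1A stood at 44.4 CPM (42.6 to 46.2) in the WT-labelled library, against 33.2 CPM (30.7 to 35.9) in the rest, and at 240 CPM (235 to 245) against 189 CPM (183 to 195) in the FKO-labelled library. It was also higher in cells with at least 2 UMIs of CALB1, the calcium buffer calbindin, by a log2 ratio of 0.55 (0.45 to 0.66) and 0.35 (0.29 to 0.40). In cells with at least 2 UMIs of SLC17A8, the vesicular glutamate transporter VGLUT3, the CACNA1A ratio was -0.44 (-0.57 to -0.31) and -0.37 (-0.45 to -0.28). CACNA1C, at -0.50 and -0.26, and CACNA1D, at -0.57 and -0.70, were also lower there, with intervals below 0 in both libraries. CACNA1B (-0.27 and -0.19) and CACNA1E (-0.91 and -0.20) had intervals that held 0 in the FKO-labelled library. CACNA1H went the other way in those cells, at 0.28 (-0.02 to 0.57) and 0.53 (0.20 to 0.85), with an interval that held 0 in the WT-labelled library. The gates overlap, and cells of 1 library are not replicates.

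Peptide gates were small. Cells with at least 2 CRH UMIs, 131 and 72, had a summed family level of 84.0 CPM (72.7 to 96.6) and 321 CPM (289 to 355), and 384 GAL cells of the WT-labelled library had 75.9 CPM (69.6 to 82.7), while the FKO-labelled library had 3 such cells. For SLC17A6, the 58 cells of the FKO-labelled library had 274 CPM (241 to 310) against 343 CPM in the rest. No ratio was taken for gates under 50 cells, which were those on SST and GAD2 in both libraries, SLC17A6 in the WT-labelled library and GAL in the FKO-labelled library.

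The auxiliary subunits did not share 1 direction against genes of like length. For these and the lists that follow, counts and the genes furthest above or below are among genes with a mean CPM of at least 1, called measured. Of the beta subunits, which traffic the pore to the membrane, 3 of 4 were above. CACNB4, with the most UMIs, stood at 40.8 and 95.9 CPM (log2 ratio 1.23), CACNB3 lay furthest above its reference (by 0.89) and CACNB2 lay -0.44 from its own. Of the alpha2delta list, the targets of gabapentin among them, 2 of 4 measured genes were above. CACNA2D2 stood at 10.9 and 33.5 CPM and lay 0.80 above, whereas CACNA2D1, the most abundant, stood at 52.1 and 69.5 CPM and lay -0.62 from its reference. Of the 4 measured genes of the gamma list, which has 8, 3 were above, with CACNG8 the highest of the 4 (0.87) and CACNG4, the most abundant, the lowest (-0.24). CACNG7 lay 0.11 above genes of like length but -0.097 from genes of like length and level. The gamma list follows gene symbols, and whether its products join calcium channels in these cells was not tested. STAC and REM2, which modulate channel gating or traffic, lay 0.45 and 0.018 above, and REM2 lay -0.028 from genes of like length and level.

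Genes that place or follow the calcium signal were also mixed. Of 5 active-zone tethers, 4 were above genes of like length, RIMBP2 by 0.88, whereas RIMS2, the most abundant at 116 and 216 CPM, lay -0.12 from its reference. Of the 5 genes of the NALCN leak channel complex, 4 were above, NALF2 by 0.59, with NALF1 the most abundant at 39.6 and 105 CPM, and the pore NALCN lay -0.08 from its reference. Of 7 measured genes of calcium-activated potassium channels, which carry the afterhyperpolarisation, 3 were above. KCNN1, among these 3, lay 0.18 above genes of like length but -0.096 from genes of like length and level. KCNMB3 lay 1.67 above at 0.695 and 3.02 CPM, and reached the mean CPM of 1 only through the FKO-labelled library, KCNMB2 lay -0.66 from its reference, and KCNMA1, the most abundant, stood at 38.3 and 67.6 CPM. KCNN3, named after its values were seen, stood at 11 and 53.9 CPM, 1.41 above.

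Of the 6 genes of calcium release channels of the endoplasmic reticulum, 2 were measured. RYR3 stood at 1.04 and 10.7 CPM, 2.36 above genes of like length. ITPR1 stood at 0.762 and 1.51 CPM, 0.12 above, and reached the mean CPM of 1 only through the FKO-labelled library. Of 8 measured genes of calcium export and uptake, 6 were above. The plasma membrane pump ATP2B2 stood at 5.87 and 31.0 CPM, 1.47 above, the exchanger SLC8A1 lay -0.24 from its reference, and the pump ATP2B1, the most abundant, stood at 121 and 212 CPM. SLC8A3, named after its values were seen, lay 1.28 above. Of the sensors and kinases, 8 of 10 were below genes of like length, but 5 of 10 were above genes of like length and level, so their direction depends on the reference. Calmodulin CALM2 stood at 2063 and 1347 CPM and lay -0.94 from the first reference and -0.15 from the second, and the kinase CAMK4 lay 0.55 above the first. Of the buffers, CALB2 (calretinin) lay 1.03 above genes of like length and 0.86 above genes of like length and level, and CALB1 lay -0.74 and -0.42 from them. Over the 11 lists, 53 of 72 genes had a mean CPM of at least 1, with a median difference of 0.20 against -0.0024 for all genes. Of the 53, 6 lay at least 1 above genes of like length, KCNMB3 and CALB2 among them, and 0 at least 1 below, beside 9.69% and 7.86% of all genes.

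These values compare 2 libraries, in which genotype, line and capture cannot be told apart. Depth differed as well, and the ratios within bins of depth given above cover only the members named there. Whether reads in introns were counted is not given in the sources used here, and for genes this long the count can include unspliced RNA primed within introns.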

How the data were processed

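Single-cell libraries of sorted cells at day 42 were analysed, 1 labelled WT and 1 labelled FKO. The deposited matrices hold raw UMI counts per gene and barcode; per the file headers they were written by Cell Ranger 7.1.0, while the submitters' processing notes name Cell Ranger 7.0 and GRCh38. The intron setting and the annotation are not given in the sources used here. They held 11052 and 8806 barcodes (123064653 and 70588747 UMIs).

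Barcodes under 1000 UMIs, under 500 genes or above 10% mitochondrial UMIs were dropped; 40.4% and 13.5% of barcodes were over that share. Of all barcodes, those with the highest Scrublet scores (scanpy 1.11.5), at 0.8% per 1000 barcodes, were marked as doublets (977 and 620) and left out. UMIs were summed over FEV-positive cells (74813554 and 53661373) and scaled to CPM, with exact Poisson, Clopper-Pearson and conditional binomial intervals of 95% (scipy 1.17.1). A count of 0 stands at a floor of 3 counts (0.0401 and 0.0559 CPM). Gene spans came from GENCODE 29 and covered 97.7% of genes compared; like-length references were the 200 genes nearest in span with a mean CPM of at least 1, members left out. Inside bins and gates, reference genes needed a mean CPM worth 10 UMIs in the shallower side. Functions were tested on simulated counts.

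The members and lists were chosen with earlier results of these data known. The genes named were all members and, from each list, the gene with the most UMIs. Among list genes with a mean CPM of at least 1, those furthest above and below genes of like length were also named. FEV, TPH2, FOXA2, other cell markers and genes overlapping a member were named to describe the libraries. KCNN3, SLC8A3, KCNN1 and CACNG7 were named after their values were seen. The alternatives varied the FEV gate, the mitochondrial, depth and doublet filters, the scaling, the like-length reference and the thinning. A further marker of other cells is not reported here.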

Additional observations from a re-analysis of the deposited data

How the results depend on the processing

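Each of 17 alternatives, and of 5 chosen after seeing the data, was applied to the values it bears on: 14 to the log2 ratios and shares whose ranges follow, and 19 to the differences from genes of like length. The CACNA1A log2 ratio ran from 2.29 to 2.82 and its difference from genes of like length from 1.31 to 1.80; CACNA1E ran from 2.38 to 2.65 and CACNA1H from 0.48 to 0.65. The difference of CACNA1H from genes of like length ran from -0.24 to 0.029. The share of family UMIs taken by Cav3 genes ran from 9.14% to 12.2% in the library labelled WT and from 3.37% to 4.19% in the library labelled FKO.

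With at most 5% mitochondrial UMIs, which left 302 and 2744 cells, the median log2 ratio over measured members was 2.28, the median difference from genes of like length 1.24, and 5 members lay at least 1 above genes of like length. In the same cells, ratios changed sign for CACNA1G (-0.33, with 3 UMIs in the library labelled WT), ITPR1 (-0.41) and TPH2 (0.12). TPH2 was also at 0.035 in cells chosen for a TPH2 UMI, a gate set on the gene itself. Over members with a mean CPM of at least 1, an alternative added after seeing the data, the medians were 1.99 and 0.97, and in cells of 5000 to 20000 UMIs, also added, the median difference was 1.01. Causes were not tested. Without mitochondrial and ribosomal protein genes the median of all genes was 0.42 in place of 0.52, and 5 members lay at least 1 above it. Members at least 1 above the median of all genes numbered 5 to 6. Depth limited CACNA1F, CACNA1S, CACNA1G and CACNA1I, each with at most 106 UMIs in a library. No paired analysis was possible because each label has 1 library.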

Other observations

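Among all 630 cells of the FKO-labelled library with no FEV UMI, CACNA1A had the highest CPM of the members, at 69.0 CPM (61.1 to 77.8), with CACNA1C at 22.7 CPM (18.2 to 27.9) and CACNA1D at 13.8 CPM (10.3 to 18.0). In 41 of them with STMN2 and at least 2 SLC17A6 UMIs, CACNA1A, CACNA1E and CACNA1D were each at 36.1 CPM (18.0 to 64.5, from 11 UMIs), and CACNA1C at 39.3 CPM (20.3 to 68.7). In FEV-positive cells of that library, CACNA1A stood at 221 CPM and CACNA1D at 9.56 CPM. The WT-labelled library had 2 such cells, too few for a level. Among barcodes with 10% to 20% mitochondrial UMIs, left out of the main values, 2414 and 405 FEV-positive cells gave a CACNA1A log2 ratio of 2.68 (2.52 to 2.84) and a CACNA1H ratio of 0.64 (-0.04 to 1.25).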
